A study of Mus musculus with 4 samples.

Results

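The baseline transcriptome of liver group 1 innate lymphoid cells (ILC1s) was described from the WT libraries of a mouse RNA-seq study. A gene was counted as expressed where its FPKM (fragments per unit of gene length and of library size) was at least 1 in both WT libraries. This held for 9065 of the 18804 rows in the table, with 8713 protein-coding and 352 non-coding genes by its own annotation. Among protein-coding rows the share was 58.9%, beside which the counts of expressed list genes below are to be read. The study holds 4 libraries of ILC1s from liver, 2 of them WT and 2 Cd200r knockout, all from mice of 5 to 8 weeks at homeostasis. The knockout libraries were not used here. The WT libraries carry the numbers 1 and 3 in the labels. Whether they came from separate mice or pools is not stated in the labels, nor are the strain, sex and sorting gates. The spread between them may therefore be technical, and with 1 group there is no contrast and no p-value.

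ILC1s are tissue-resident lymphocytes that are held in the liver by adhesion molecules and chemokine receptors. They share with natural killer (NK) cells the transcription factor T-bet, killer lectin-like receptors, interferon-gamma and cytotoxic granules. Granzymes are proteases that enter a target cell through pores made by perforin, while Fas ligand and TRAIL trigger death receptors. CD200 receptors belong to the immunoglobulin superfamily, and CD200R1 is inhibitory when it binds CD200 on other cells.

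All 8 genes given as markers of these cells were among the expressed genes. They were given with the choice of these libraries, so their expression is a description and no check of cell identity. Gzma, which encodes granzyme A, was at 11383 FPKM in replicate 1 and 11494 in replicate 3 and ranked 3 of all expressed genes by mean. Nkg7, a granule membrane protein, was at 6032 and 6502 FPKM and ranked 8. Gzmb, which encodes granzyme B, was at 4226 and 4247 FPKM and ranked 15. These 3 were the highest of the marker genes in both libraries. Cxcr6, the chemokine receptor that binds CXCL16, was at 1004 and 1067 FPKM. Fasl, which encodes Fas ligand, was at 373 and 405 FPKM. The markers Cd200r2 (276 and 308 FPKM) and Cd200r1 (162 and 173 FPKM) followed. Itga1, which encodes the integrin chain CD49a that defines liver ILC1s by flow cytometry, was the lowest of the 8 at 48.3 and 53.0 FPKM, and still ranked 1635 of 9065.

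**Figure D1:**
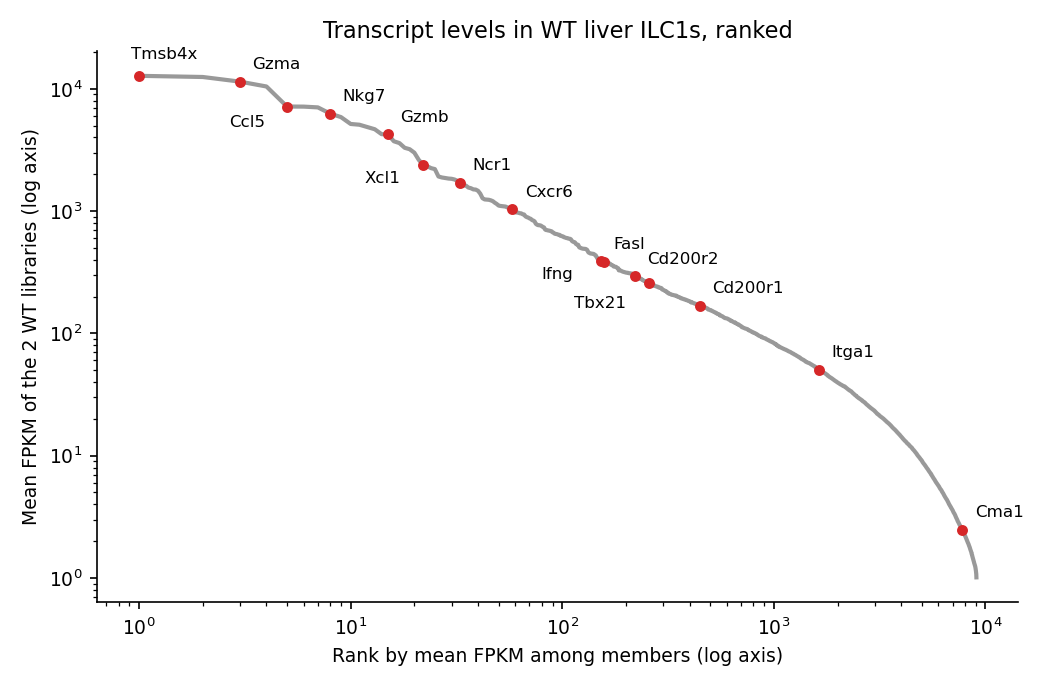
Mean FPKM of the 2 WT libraries (vertical, log axis) against rank among the 9065 expressed genes (horizontal, log axis), with named genes as red points. Gzma, Nkg7 and Gzmb lie within the 15 highest ranks, and Itga1 lies at rank 1635.

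The sequence before the start site was examined for the marker genes. It is shown because the levels above belong to these genes. Of the 8 markers, 7 had a promoter in the RefSeq table (GRCm38.p6); Cd200r1 did not match. All 7 are given in the order of their mean FPKM. The 250 bases before the start site are written 5′ to 3′ on the strand of the gene, and capitals mark TGTGGT, a core motif of Runt-domain factors, or its reverse complement ACCACA.
Gzma, chr13:113100982-113101231, minus strand: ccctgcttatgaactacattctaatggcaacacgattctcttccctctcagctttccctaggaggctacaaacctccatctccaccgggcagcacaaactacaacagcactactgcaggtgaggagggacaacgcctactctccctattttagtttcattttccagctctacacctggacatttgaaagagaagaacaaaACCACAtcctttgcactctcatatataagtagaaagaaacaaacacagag
Nkg7, chr7:43436888-43437137, plus strand: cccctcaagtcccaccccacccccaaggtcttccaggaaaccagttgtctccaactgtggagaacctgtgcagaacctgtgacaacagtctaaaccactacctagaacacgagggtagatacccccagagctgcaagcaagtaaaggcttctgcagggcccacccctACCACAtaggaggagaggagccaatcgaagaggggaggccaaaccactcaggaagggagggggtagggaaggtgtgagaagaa
Gzmb, chr14:56262335-56262584, minus strand: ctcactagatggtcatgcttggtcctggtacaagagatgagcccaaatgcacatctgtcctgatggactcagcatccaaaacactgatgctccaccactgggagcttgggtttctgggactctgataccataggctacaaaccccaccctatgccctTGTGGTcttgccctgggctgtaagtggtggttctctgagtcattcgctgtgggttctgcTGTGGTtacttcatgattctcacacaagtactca
Cxcr6, chr9:123806227-123806476, plus strand: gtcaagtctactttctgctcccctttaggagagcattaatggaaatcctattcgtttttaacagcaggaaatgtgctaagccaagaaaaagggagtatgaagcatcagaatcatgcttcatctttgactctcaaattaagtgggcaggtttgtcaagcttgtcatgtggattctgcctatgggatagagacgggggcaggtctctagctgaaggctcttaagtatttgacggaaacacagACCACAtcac
Fasl, chr1:161788496-161788745, minus strand: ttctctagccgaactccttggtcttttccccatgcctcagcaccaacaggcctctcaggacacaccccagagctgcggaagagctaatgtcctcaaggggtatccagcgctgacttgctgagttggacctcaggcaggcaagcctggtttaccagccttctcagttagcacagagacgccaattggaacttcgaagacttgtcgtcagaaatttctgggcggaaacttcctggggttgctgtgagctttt
Cd200r2, chr16:44866847-44867096, plus strand: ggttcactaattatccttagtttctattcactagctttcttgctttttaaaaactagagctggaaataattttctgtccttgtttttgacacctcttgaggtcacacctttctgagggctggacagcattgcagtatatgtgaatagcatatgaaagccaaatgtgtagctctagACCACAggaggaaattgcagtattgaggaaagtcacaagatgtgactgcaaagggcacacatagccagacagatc
Itga1, chr13:115101965-115102214, minus strand: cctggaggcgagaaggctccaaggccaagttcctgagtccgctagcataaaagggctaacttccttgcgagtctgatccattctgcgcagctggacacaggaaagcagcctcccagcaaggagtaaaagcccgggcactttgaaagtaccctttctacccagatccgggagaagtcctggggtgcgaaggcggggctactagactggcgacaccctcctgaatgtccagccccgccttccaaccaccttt
TGTGGT was read on both strands over 300 bases that run from 250 before to 50 after the start. It was in 5 of the 7 marker promoters, and not in those of Fasl and Itga1. Each of these markers had a single start in the RefSeq table, while a gene with several starts was counted if any of them had the motif. Cd200r2 holds it and Fasl, with the higher level, does not. It was in 28.0% of the matched genes at ranks 1 to 100 and in 24.8% over the next 200 ranks. Of the markers, Gzma (rank 3) to Cd200r2 (rank 221) lie in these ranks, and Cd200r1 and Itga1 below them. It was in 15.4% of the 7379 expressed genes with a promoter and in 18.9% of all 27025 genes in the promoter table. This motif was singled out after its presence in the marker promoters had been seen, from 11 searched, so its count is a description. A match of 6 letters is not a bound site.

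The other motifs were also searched on both strands. They were the T-box type TCACAC, the AP-1 type TGANTCA and the cyclic AMP response element TGACGTCA. The GC box was searched as GGGCGG and the CCAAT box as CCAAT. The TATA type was searched as TATAA, and separately in the longer form TATAAA. The Ets type was searched in the short form GGAAGT and in a longer form that was ACAGGAAG or its variant ACCGGAAG. TATAAA contains TATAA, and the Ets-type motifs differ in length and letters. TATAA was also counted only where it lay within 45 to 16 bases before the start on the strand of the gene. TCACAC was in 3 of the 7 marker promoters, CCAAT in 4 and GGAAGT in 2. The AP-1 type, the GC box and the short TATA motif were each in 1, as was TATAA near the start. TATAAA, TGACGTCA and the longer Ets-type motif were in none of the 7. GGGCGG was in 67.99% of expressed genes with a promoter, in 52.0% of those at ranks 1 to 100 and in 38.2% of all 27025 genes in the promoter table. TATAA was in 15.95% of expressed genes with a promoter, in 41.3% of those at ranks 1 to 100 and in 28.0% of all genes in the promoter table. Near the start it was in 2.47% of expressed genes with a promoter and in 15 of the 75 at ranks 1 to 100. Over all genes in the promoter table this share was 4.67%. The 4 expressed globin genes (Hba-a1, Hba-a2, Hbb-bs and Hbb-bt), which are erythroid markers, are among the 15 at ranks 1 to 100. The ratio of observed to expected CpG was averaged over the starts of a gene. Its median was 0.507 over the 75 matched genes at ranks 1 to 100, against 0.719 over the next 200 ranks and 0.772 over all expressed genes. The rank ranges were chosen after the data had been seen.

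**Figure D2:**
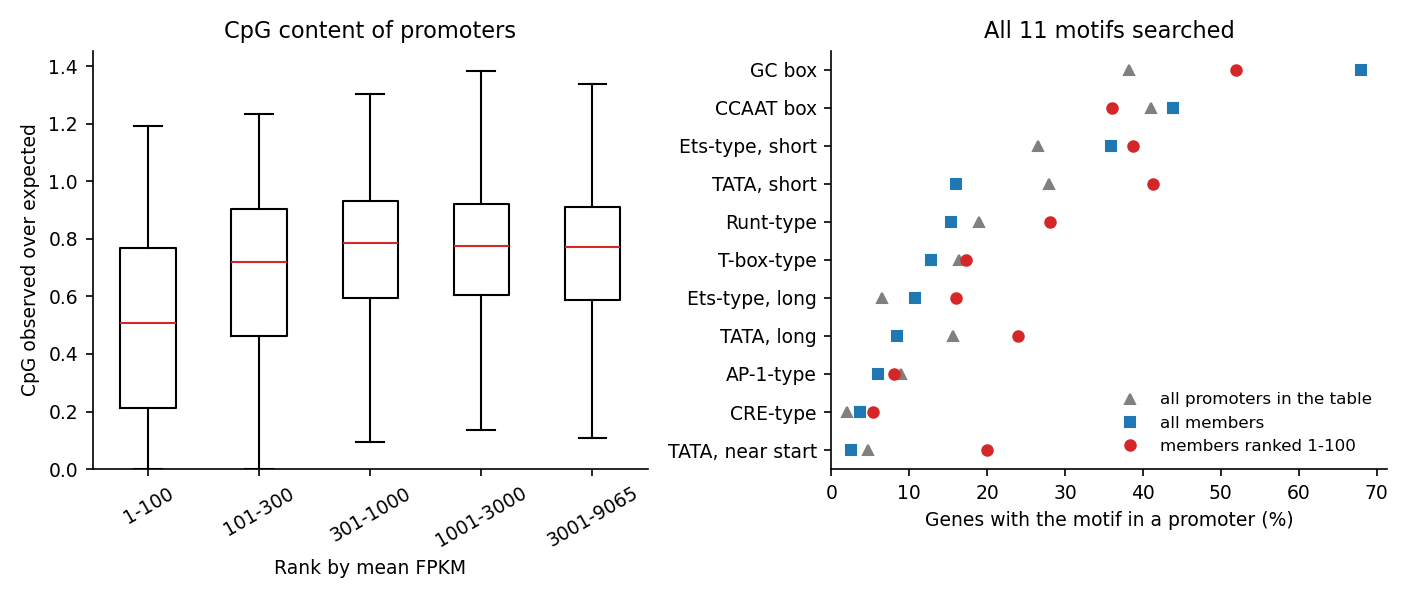
Left, observed over expected CpG in promoters by rank of mean FPKM (line, median; box, quartiles; whiskers, 1.5 times the quartile range). Right, share of genes with each of the 11 motifs, in all promoters of the table, all expressed genes and ranks 1 to 100. CpG is lowest at ranks 1 to 100 (median 0.507). The short TATA motif is at 41.3% there, 15.95% in all expressed genes and 28.0% in all promoters.

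Expression was concentrated in few genes. The median expressed gene was at 11.3 FPKM (quartiles 3.90 and 34.4), 4794 genes had a mean of at least 10 FPKM, 815 of at least 100 and 58 of at least 1000. The 10 highest genes held 16.7% of the summed FPKM in each library, and 197 genes in replicate 1 and 186 in replicate 3 held 50%. Tmsb4x, which encodes the actin-binding peptide thymosin beta 4, had the highest mean with 12923 FPKM in replicate 1 and 12603 in replicate 3. Hba-a1, an alpha-globin gene, came next with 11885 and 13089 FPKM and was the highest gene in replicate 3. Stretches of 31 bases shared with other genes made up 71.4% of its transcript, 91.0% of Hba-a2 and 66.9% of Hbb-bs. Levels and ranks of these globin genes are therefore uncertain where counting split or dropped such reads. B2m, the light chain of MHC class I, was at 10609 and 10272 FPKM. Ccl5, a chemokine that attracts T cells and NK cells, was at 7216 and 7104 FPKM. All 40 of the highest genes were shared by both libraries.

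By class, the actin and thymosin cytoskeleton genes held 6.66% ± 0.0331 (SD, n = 2) of the summed FPKM and granule effectors 5.36% ± 0.0510. The granule effector class also holds Ctsd, which encodes cathepsin D, with 0.326% and 0.305%. Its share is therefore not that of granzymes and perforin alone. Globins held 4.98% ± 0.263, and MHC class I with B2m 4.29% ± 0.0725. The nuclear genes of oxidative phosphorylation (3.06% ± 0.0945) and cytosolic ribosomal proteins (2.89% ± 0.166) came next, followed by chemokines and cytokines (2.67% ± 0.0670). Over 90 of the ribosomal genes, a median of 47.3% of the transcript lay in stretches of 31 bases shared with other genes. The median over expressed genes was 0. The ribosomal share is therefore uncertain where counting split or dropped such reads, as is the globin share. The 13 mitochondrially encoded protein genes, all expressed, held 1.31% in replicate 1 and 1.65% in replicate 3. Their means ran from 2.68 to 3205 FPKM, with 7 at 100 FPKM or more. Shared stretches made up 63.9% of COX1, 6.55% of CYTB and 0% of ND1. The mitochondrial share is therefore also uncertain where counting split or dropped such reads. Killer lectin-like receptors, the family that includes NKG2A and NKG2D (here with Ncr1, the natural cytotoxicity receptor NKp46), held 1.42% ± 0.00149. The 8 Gimap genes, GTPases of lymphocyte survival, held 1.46% ± 0.0196, with 3 of them among the 40 highest genes (Gimap6, Gimap3 and Gimap4). These shares depend on gene length. As a share of counted fragments, over the 8692 expressed genes with a length, granule effectors held 3.49%, globins 1.75% and chemokines and cytokines 0.991%.

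**Figure D3:**
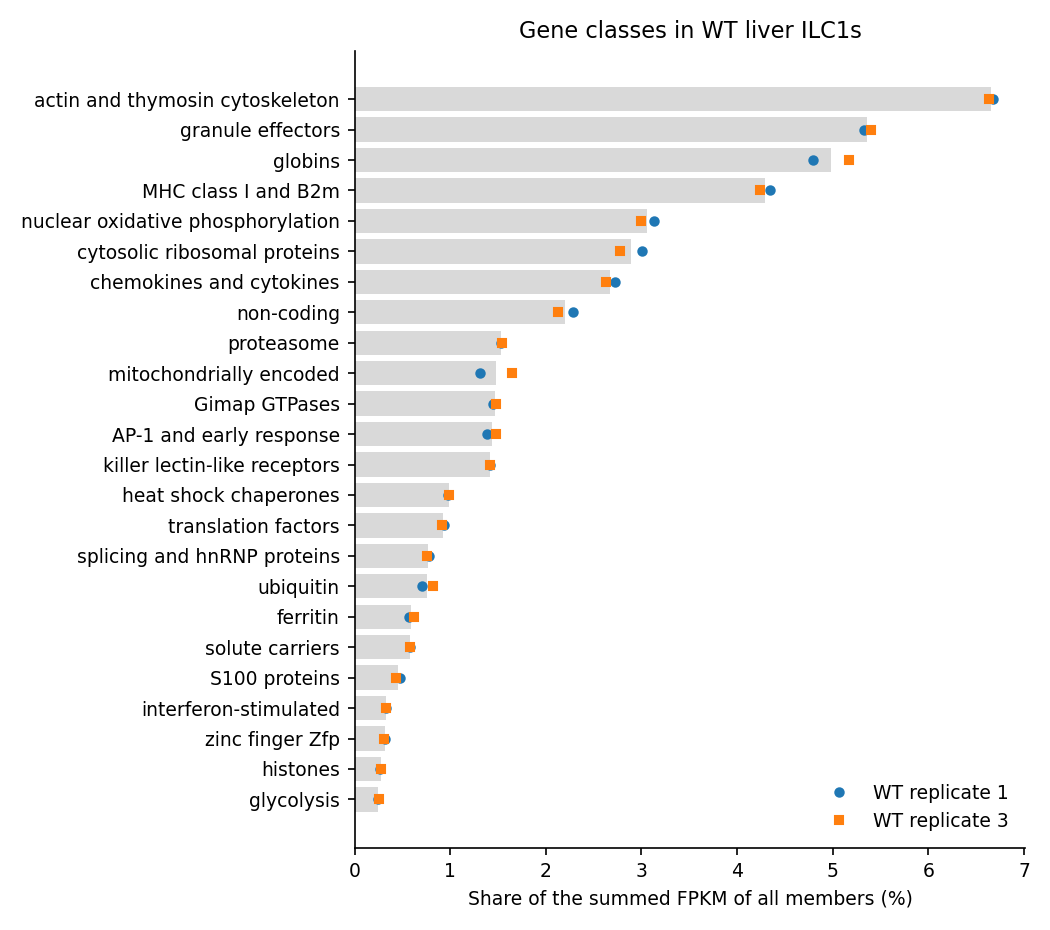
Share of the summed FPKM of expressed genes (horizontal, %) for 24 gene classes; bars are the mean of the 2 WT libraries, circles replicate 1 and squares replicate 3, and the remaining protein-coding genes (54.3%) are not drawn. Cytoskeleton, granule effectors and globins are the widest bars, and the libraries lie apart most for globins and mitochondrially encoded genes.

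Among granzymes, Gzmc came after Gzma and Gzmb, with 292 and 319 FPKM. Of 6 measured granzyme genes, 3 were expressed in both libraries; Gzmk (1.82 and 0.720 FPKM) and Gzmm (0.622 and 0.697 FPKM) were not, and Gzmd was listed at 0 in both. All 14 genes of the granule pore, matrix and processing were expressed. Prf1, which encodes perforin, was at 304 and 323 FPKM. Ctsw, the lymphocyte cathepsin W, was at 1871 and 1751 FPKM, and Cst7, the protease inhibitor cystatin F, at 362 and 394 FPKM. All 7 ligands of the tumour necrosis factor family on the list were expressed. Ltb, which encodes lymphotoxin beta and is not a ligand of death receptors, was at 623 and 656 FPKM. Of the ligands of death receptors, Fasl was the highest, and Tnfsf10, which encodes TRAIL, was at 24.0 and 17.9 FPKM.

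Of 17 cytokine genes in the table, 6 were expressed. Ifng, the defining cytokine of ILC1s, led them with 371 and 396 FPKM, followed by Mif (202 and 205 FPKM). The cytokines of other helper subsets Il13, Il21 and Il22 were listed at 0 in both libraries. Of 16 chemokine genes, 7 were expressed. After Ccl5 came Xcl1, the ligand of XCR1 on cross-presenting dendritic cells, with 2590 and 2196 FPKM, and Ccl4 with 1870 and 1895 FPKM. Among receptors, Cxcr3, which binds interferon-induced chemokines, was at 646 and 695 FPKM. Il2rg, the common gamma chain of receptors for interleukins 2 and 15, was at 2035 and 2374 FPKM, and Il2rb at 611 and 597 FPKM.

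All 20 activating receptors were expressed, with a median of 107 FPKM against 11.3 over all expressed genes. Ncr1 was at 1653 and 1748 FPKM, and Klrb1c, which encodes NK1.1, at 942 and 996 FPKM. Of 29 inhibitory receptors, 23 were expressed. Klrc1, which encodes NKG2A, was at 866 and 904 FPKM, and its partner Klrd1 (CD94) at 904 and 824 FPKM. Stretches of 31 bases shared with other genes made up 54.5% of the Klrc1 transcript, so its level is uncertain where counting split or dropped such reads. All 27 genes of the adaptors and proximal kinases below these receptors were expressed. Tyrobp, which encodes the adaptor DAP12, was at 5167 and 4998 FPKM and Fcer1g at 3678 and 3769 FPKM. Within the CD200 receptor family, Cd200r4 was also expressed (75.6 and 76.7 FPKM). Its 3 expressed genes lie near each other on chromosome 16: Cd200r1 at chr16:44765736-44794977, Cd200r4 at chr16:44811650-44839150 and Cd200r2 at chr16:44867097-44915840 (GRCm38.p6). Cd200r3 was below 1 FPKM in both libraries (0.876 and 0.847), and the ligand gene Cd200 was at 0.407 FPKM in replicate 1 and listed at 0 in replicate 3. CD200R1 is known to signal through Dok2, Dok1 and RasGAP. Dok2 was at 214 and 235 FPKM, Dok1 at 30.2 and 30.6 FPKM and Inpp5d, the phosphatase SHIP, at 40.8 and 43.4 FPKM. These belong to a list of 12 Dok, Ras and inhibitory phosphatase genes, of which 10 were expressed. The list also holds Ptpn6 (277 and 263 FPKM), the phosphatase SHP-1, which is known to bind receptors with an ITIM.

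Of 1097 rows that the table assigns to a transcription factor family, 597 were expressed, with a median of 5.37 FPKM. Id2, an inhibitor of E proteins that all innate lymphoid cells need, was the highest with 2295 and 2361 FPKM. Tbx21, which encodes T-bet, was at 254 and 263 FPKM, while Eomes, which marks NK cells, was at 0.475 and 1.20 FPKM and so was not expressed by the rule. Of 23 ILC1 signature genes in the table, 21 were expressed with a median of 96.6 FPKM; of 24 genes of a circulating NK signature, 18 were expressed with a median of 11.1 FPKM. Ikzf2 and Gpr55 were the ILC1 genes below 1 FPKM in a library. The ILC1 list contains 3 of the markers, Cxcr6, Cd200r1 and Itga1. Immediate-early genes, which are induced within minutes by activation or by tissue handling, were expressed in 29 of 33 cases, with Junb at 1242 and 1231 FPKM and Fos at 822 and 963 FPKM. Of 29 cell cycle genes, 21 were expressed, with a median of 6.96 FPKM. Pcna, a replication clamp, was at 131 and 134 FPKM, and Mki67, a marker of dividing cells, at 0.325 and 0.263 FPKM. In glycolysis 17 of 19 genes were expressed, led by Eno1 (528 and 578 FPKM). Gapdh, named after its value was seen, was at 16.3 and 15.3 FPKM, with 84.1% of its transcript in stretches shared with other genes (77.2% for Eno1). Of the 349 expressed genes in the non-coding class, AW112010 was the highest, with 6162 and 5572 FPKM.

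Markers of other cells were examined beside these values. Over the whole table, 9065 of 18804 rows and 58.9% of the protein-coding rows were expressed. A list count near that share does not mark a cell type. In bulk RNA, fewer cells of a type and less RNA per cell cannot be told apart. Of 9 measured ILC2 genes, 2 were expressed, Gata3 (45.1 and 34.4 FPKM) and Klrg1 (18 and 19.5 FPKM). Klrg1 is also on the circulating NK list. Il1rl1, the receptor for interleukin 33, was at 0.0136 and 0.0172 FPKM. Of 13 neutrophil genes, 2 were expressed, Mmp9 (64.4 and 69.7 FPKM) and S100a8 (15.5 and 6.55 FPKM), and the list summed to 83.3 and 78.5 FPKM; Mpo was listed at 0 in both libraries. No gene of the platelet or stellate cell lists was expressed by the rule, with summed levels of 3.04 and 0.891 FPKM and of 0.899 and 0.161 FPKM. Of 10 measured T cell genes, 9 were expressed: Cd3g at 2249 and 2238 FPKM and Cd3d at 84.8 and 76.9 FPKM, with Cd3e at 13.3 and 10.1 FPKM and Cd8a at 20.3 and 19.3 FPKM. The list held 14 genes, with those of the T cell receptor constant regions among them, and only 10 were in the table. Of 7 listed gamma delta T cell genes, 2 were in the table and none was expressed. Values of constant region genes are not given here. Of 12 erythroid genes, 10 were expressed and their summed FPKM was 24987 and 27124, while Klf1 and Epor were below 0.1 FPKM in each library. Of 16 Kupffer cell and macrophage genes, 9 were expressed, summed over the list to 246 and 226 FPKM, of which Lyz2 gave 213 and 193; Mertk was listed at 0. Of 10 monocyte genes, which include Lyz2, 8 were expressed and the list summed to 324 and 302 FPKM. Of 14 dendritic cell genes, 7 were expressed and the list summed to 520 and 584 FPKM, with Cd74 (163 and 211 FPKM) and H2-Ab1 (90.4 and 124 FPKM) the highest. Of 17 hepatocyte genes, 16 were expressed, summed to 586 and 743 FPKM, with Alb at 46.9 and 70.1 FPKM. Of 11 B and plasma cell genes, 7 were expressed, with Cd79a at 23.004 and 34.2 FPKM. The part of such cells in the levels above was not tested. Both Xist (3.58 and 2.32 FPKM) and the Y-linked Ddx3y (17.7 and 14.3 FPKM), named after their values were seen, were detected in each library.

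**Figure D4:**
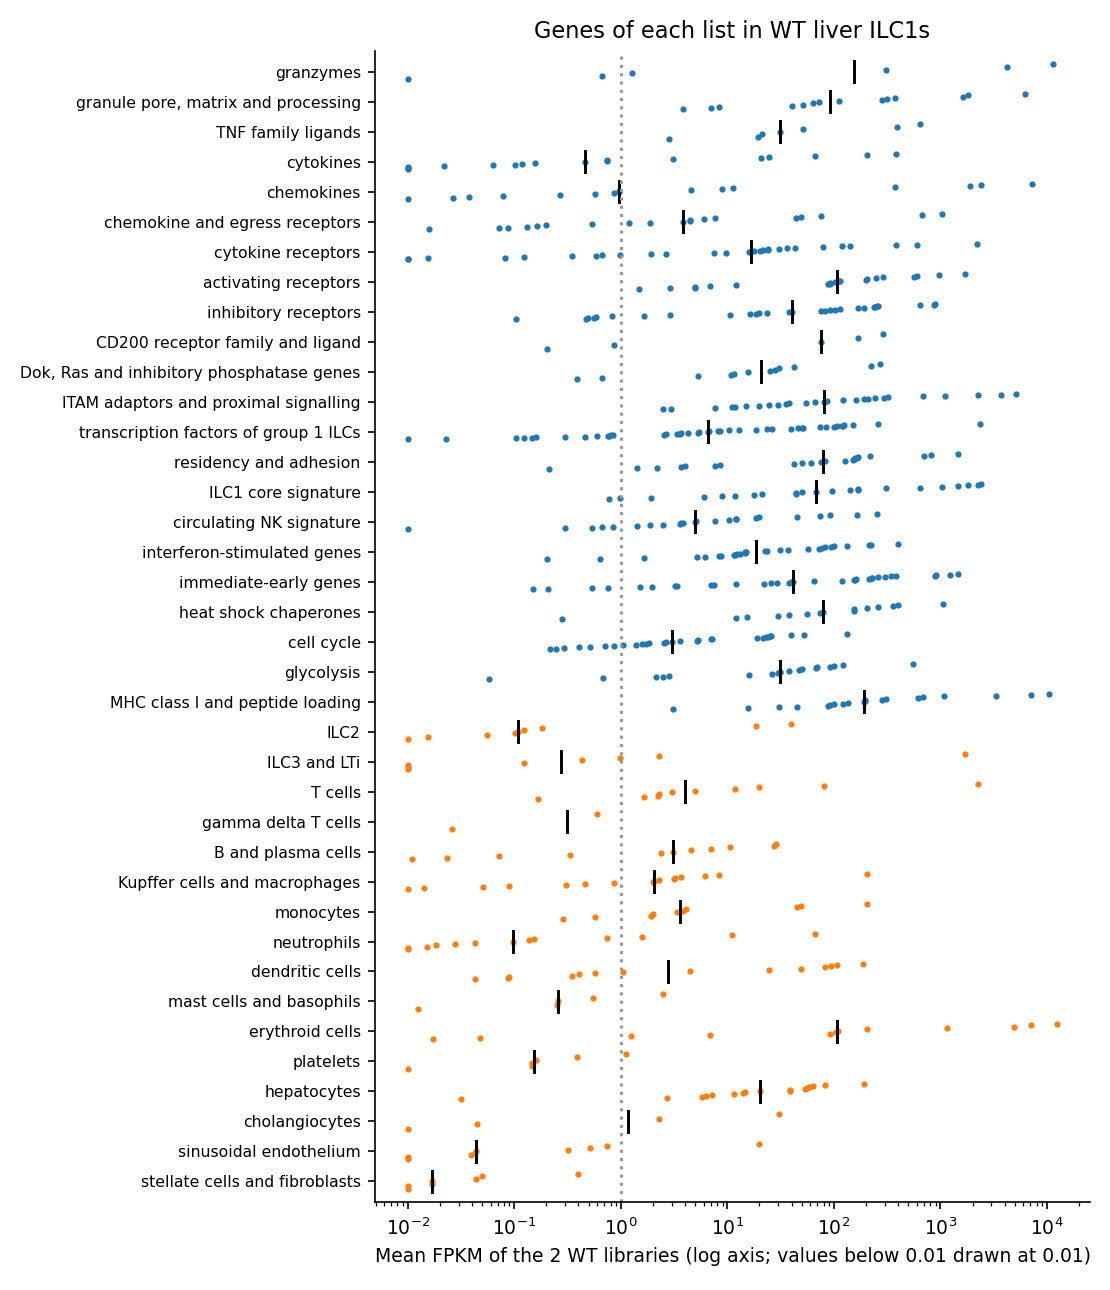
Mean FPKM of the 2 WT libraries (log axis, values below 0.01 drawn at 0.01) for the genes of 22 lists by function (blue) and 16 lists for other cells (orange); black ticks are list medians and the dotted line is 1 FPKM. Activating receptors, MHC class I genes and signalling adaptors lie to the right, and ILC2, platelet, endothelial and stellate lists to the left apart from single genes, while erythroid and hepatocyte lists do not.

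The libraries were alike at high levels and differed more at low ones. Across the 9065 genes, which are not independent replicates, log2(FPKM + 1) correlated with a Pearson r of 0.992 and a Spearman rho of 0.987. The log2 ratio of replicate 1 to replicate 3 had a median of 0.03 and an SD of 0.249. With the pseudocount of 1, 21 genes (0.232%) were past 2-fold, 9 higher in replicate 1 and 12 in replicate 3. Without it 103 were, with the balance the other way, 57 higher in replicate 1 and 46 in replicate 3. Without the pseudocount, the SD of the ratio was 0.453 for genes at 1 to 3 FPKM and 0.119 for genes at 1000 FPKM or more. Counting error alone, at the inferred depth of 39349312 and 38972600 fragments, would give 0.145 and 0.00682. Separately amplified libraries differ by more than counting, so these values are only a lower limit and no test. The depths were inferred from repeated steps among low values of single-exon genes. In each library 10 and 8 candidate values coincided, against 5 and 4 for the next best depth. Of the low single-exon values, 25.8% and 23.9% lay within 0.05 of a whole fragment, so most did not. The depths were chosen on values of this kind, so these shares are no separate check of them.

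Of the genes whose mean reached 10 FPKM, Jchain and S100a8 were the most different in one direction and Hp and Serpina1d in the other. Jchain, the joining chain of secreted antibodies, was at 15.9 FPKM in replicate 1 and 5.39 in replicate 3. S100a8, which encodes a neutrophil calcium-binding protein, was at 15.5 and 6.55 FPKM. By contrast, Hp (haptoglobin, made by hepatocytes) was at 12.4 and 23.01 FPKM and Serpina1d at 23.3 and 41.7 FPKM. Some groups, chosen after their values were seen, lay mostly on one side. Higher values in replicate 3 were found for 15 of the 16 expressed hepatocyte genes and 12 of the 13 mitochondrially encoded genes, against 44.3% of all expressed genes. They were found for 16 of 91 cytosolic ribosomal genes (median log2 ratio 0.11 toward replicate 1) and for 0 of 7 S100 genes. CYTB, a mitochondrial subunit of complex III, was at 2688 and 3723 FPKM. What moved these groups together was not tested. At the threshold, F2rl1 was just inside (1.79 and 1.001 FPKM), and Plekhg2 (1.74 and 0.99984 FPKM) was just outside.

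**Figure D5:**
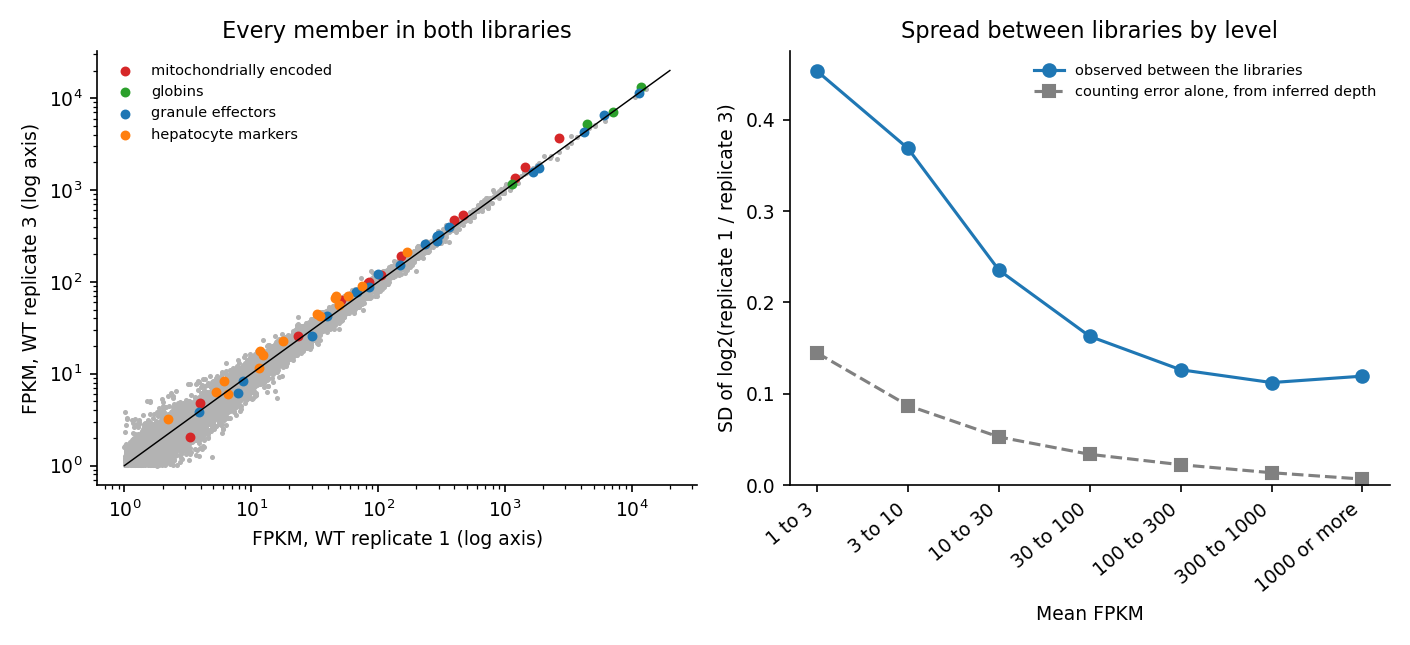
Left, FPKM of every expressed gene in replicate 1 (horizontal) and replicate 3 (vertical), both log axes, with 4 gene groups coloured and the line of equality. Right, SD of the log2 ratio without pseudocount by mean FPKM (circles) beside the SD from counting error at the inferred depth (squares): the observed SD is 0.453 at 1 to 3 FPKM and 0.119 at 1000 or more.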

How the data were processed

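RNA-seq of liver ILC1s was analysed in the 2 WT libraries. Per the labels' protocols, RNA was taken up in TRIzol, and cDNA was amplified full-length before tagmentation, which does not mark strand. Per the submitters' processing notes, fastp, HISAT2, HTSeq, DESeq2, R 3.2.0 and mm10 were used, with no role given. The authors deposited FPKM, with no counts.

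Genes at 1 FPKM or more in both libraries were kept. Shares are of their summed FPKM over 25 exclusive classes. Ratios are log2((replicate 1 + 1)/(replicate 3 + 1)). Python 3.11.15, pandas 2.3.3 and numpy 2.4.6 were used, and the script was tested on simulated data. RefSeq (GRCm38.p6) matched 9038 expressed genes, and GENCODE M21 gave lengths and the 31-base stretches shared between genes. Depth was sought between 20000000 and 80000000 fragments, a range set with an earlier estimate known.

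Named genes were the 40 highest, up to 5 per list, 3 per class, the markers, list genes below 1 FPKM, and the 10 most different between libraries in each direction. Members and 38 lists were chosen with earlier results of these data known. Hobit and Cd49a, other names of listed genes, were taken off the lists, and 2 lists renamed, after the table was seen; promoter motifs, shared stretches and rank ranges were added then.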

Additional observations from a re-analysis of the deposited data

How the results depend on the processing

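The number of expressed genes ranged from 6059 (at least 5 FPKM) to 10105 (at least 0.5 FPKM), within 1.5 times 9065 under all 8 alternatives, with 10064 at 1 TPM. The list genes expressed numbered 388, and 414 at 1 TPM. Of 114 list counts 109 stayed within 1.5 times; with TPM, granzymes had 5, neutrophil genes 4 and gamma delta T cell genes 1. No paired analysis was possible because a single group was used. Class shares with 1 library left out cannot move by more than the SD of 2 libraries, so that alternative says nothing of their stability. The number of genes past 2-fold was 103 with a pseudocount of 0, 84 with 0.1, 1 with 5, 61 with no filter, 2 with a minimum of 5 FPKM and 46 with TPM, against 21. The SD of the log2 ratio was 0.162 with a pseudocount of 5, and the median ratio was -0.000955 after quantile normalization against 0.03. For the agreement values a shift was judged by a factor of 1.5, not by a replicate SD. Tmsb4x and Hba-a1 exchanged ranks 1 and 2 in replicate 3.

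Class shares moved by more than the SD of the libraries as follows. Without mitochondrial and globin genes in the denominator: other protein-coding 58.1%, actin and thymosin cytoskeleton 7.12%, granule effectors 5.73%, MHC class I and B2m 4.58%, nuclear oxidative phosphorylation 3.27%, cytosolic ribosomal proteins 3.09%, chemokines and cytokines 2.86%, non-coding 2.35%, proteasome 1.64%, Gimap GTPases 1.57%, AP-1 and early response 1.53%, killer lectin-like receptors 1.51%, heat shock chaperones 1.05%, translation factors 0.991%, splicing and hnRNP proteins 0.824%, ferritin 0.633%, solute carriers 0.618%, interferon-stimulated 0.352%, zinc finger Zfp 0.337%, histones 0.295%, glycolysis 0.267%. Without the 10 highest genes: other protein-coding 65.2%, actin and thymosin cytoskeleton 3.80%, nuclear oxidative phosphorylation 3.68%, cytosolic ribosomal proteins 3.47%, granule effectors 2.29%, proteasome 1.84%, mitochondrially encoded 1.78%, Gimap GTPases 1.76%, AP-1 and early response 1.72%, killer lectin-like receptors 1.70%, chemokines and cytokines 1.53%, globins 1.41%, non-coding 1.27%, heat shock chaperones 1.18%, translation factors 1.11%, MHC class I and B2m 1.03%, splicing and hnRNP proteins 0.926%, ubiquitin 0.914%, ferritin 0.711%, solute carriers 0.694%, S100 proteins 0.546%, interferon-stimulated 0.396%, zinc finger Zfp 0.378%, histones 0.331%, glycolysis 0.300%. As a share of counted fragments: other protein-coding 66.6%, actin and thymosin cytoskeleton 5.23%, granule effectors 3.49%, MHC class I and B2m 3.25%, AP-1 and early response 1.97%, globins 1.75%, nuclear oxidative phosphorylation 1.72%, Gimap GTPases 1.69%, cytosolic ribosomal proteins 1.52%, heat shock chaperones 1.52%, killer lectin-like receptors 1.39%, proteasome 1.25%, non-coding 1.16%, translation factors 1.03%, chemokines and cytokines 0.991%, splicing and hnRNP proteins 0.991%, mitochondrially encoded 0.952%, solute carriers 0.752%, ubiquitin 0.650%, zinc finger Zfp 0.541%, interferon-stimulated 0.415%, ferritin 0.391%, histones 0.309%, glycolysis 0.308%, S100 proteins 0.141%. With a minimum of 5 FPKM: other protein-coding 53.8%, actin and thymosin cytoskeleton 6.77%, granule effectors 5.45%, proteasome 1.56%, Gimap GTPases 1.49%, killer lectin-like receptors 1.44%, heat shock chaperones 0.993%, solute carriers 0.554%, interferon-stimulated 0.334%, zinc finger Zfp 0.240%. Over all rows: killer lectin-like receptors 1.41%, solute carriers 0.580%, zinc finger Zfp 0.325%. The fragment shares and the counting error use the longest coding transcript of each gene. That length was chosen after the summed exon length of all transcripts had overshot the library total. With it, FPKM times length summed to 95.8% and 96.1% of the total. The inferred depth cancels in these values, so they are no check of it. Expressed genes without a length, AW112010 among them, were left out of the fragment shares, including the non-coding share of 1.16%.

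Depth limits genes near 1 FPKM, where 1 FPKM is about 39.3 and 39.0 fragments per kilobase. Gene copies share sequence: 354 expressed genes had over 50% of their transcript in shared stretches.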
